A study of Mus musculus with 10 samples.

Results

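The urea cycle and the breakdown of amino acids were described here through 39 genes of liver enzymes and carriers, listed by name from the pathways. Of the 18194 genes with a probe set of their own on the array, 36 of these 39 were among them, and 35 were measured above background; 8535 genes were measured above background in all. RNA came from whole livers of 10 female mice, 5 homozygous for human APOE4 and 5 homozygous for human APOE3, each put in place of the mouse Apoe gene under the control of its regulatory sequences, in the C57BL/6 strain. All animals were 3 months old and ate the same diet with 2 g/kg of cholesterol and 41% of its energy from milk fat, for 6 weeks by the design text or 2 months by the growth protocol. There was 1 array per animal, and values are log2 units made by the authors with GCRMA, in which a difference of 1 is a doubling. A mean under 4 over the 10 livers counts as near background.

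Amino acids that are not used for protein lose their nitrogen and leave a carbon skeleton that is burned or made into glucose, ketone bodies or fat. Transaminases move the nitrogen onto glutamate and aspartate, glutamate dehydrogenase frees it as ammonia, and the urea cycle joins ammonia and aspartate nitrogen into urea, which the kidney excretes. The liver holds the complete cycle, mostly in hepatocytes near the portal vein, and many of these genes are known to respond to glucagon, glucocorticoids, fasting and dietary protein. Inherited loss of single enzymes gives human diseases such as ornithine transcarbamylase deficiency (OTC) and tyrosinemia (FAH).

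The comparison asks how the liver transcripts of this pathway differ between APOE4 and APOE3 animals. Of the 35 measured members, 0 passed the adjusted threshold in limma, where 0.0815% of the 14732 tested probe sets did, 0.0339% with the higher and 0.0475% with the lower mean in APOE4. The differences were small: the largest was -0.36 log2 for Hal, and the median over the members was -0.09, against 0.04 over all tested genes. The APOE4 mean was the lower one for 25 of the 35 members, against 40.4% of all tested genes. Many members placed the same livers lowest, as described below, so these are not 35 independent differences. The median deviation of the members in a liver had an SD of 0.13 log2 between livers of a genotype. An unadjusted p under 0.05 was reached by 2 members, Otc and Glud1, against 8.00% of all tested probe sets. In 25 members the 95% interval of the difference lay within 0.5 log2 of 0, and in 33 within 1. Adjusted p-values in limma ran from 0.584 to 0.99. Leaving out single animals moved the members' median between -0.029 (without APOE4 replicate 4) and -0.14 (without APOE3 replicate 1); it was -0.047 without APOE4 replicate 2, and -0.037 without APOE3 replicate 3 and without APOE3 replicate 5.

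**Figure D1:**
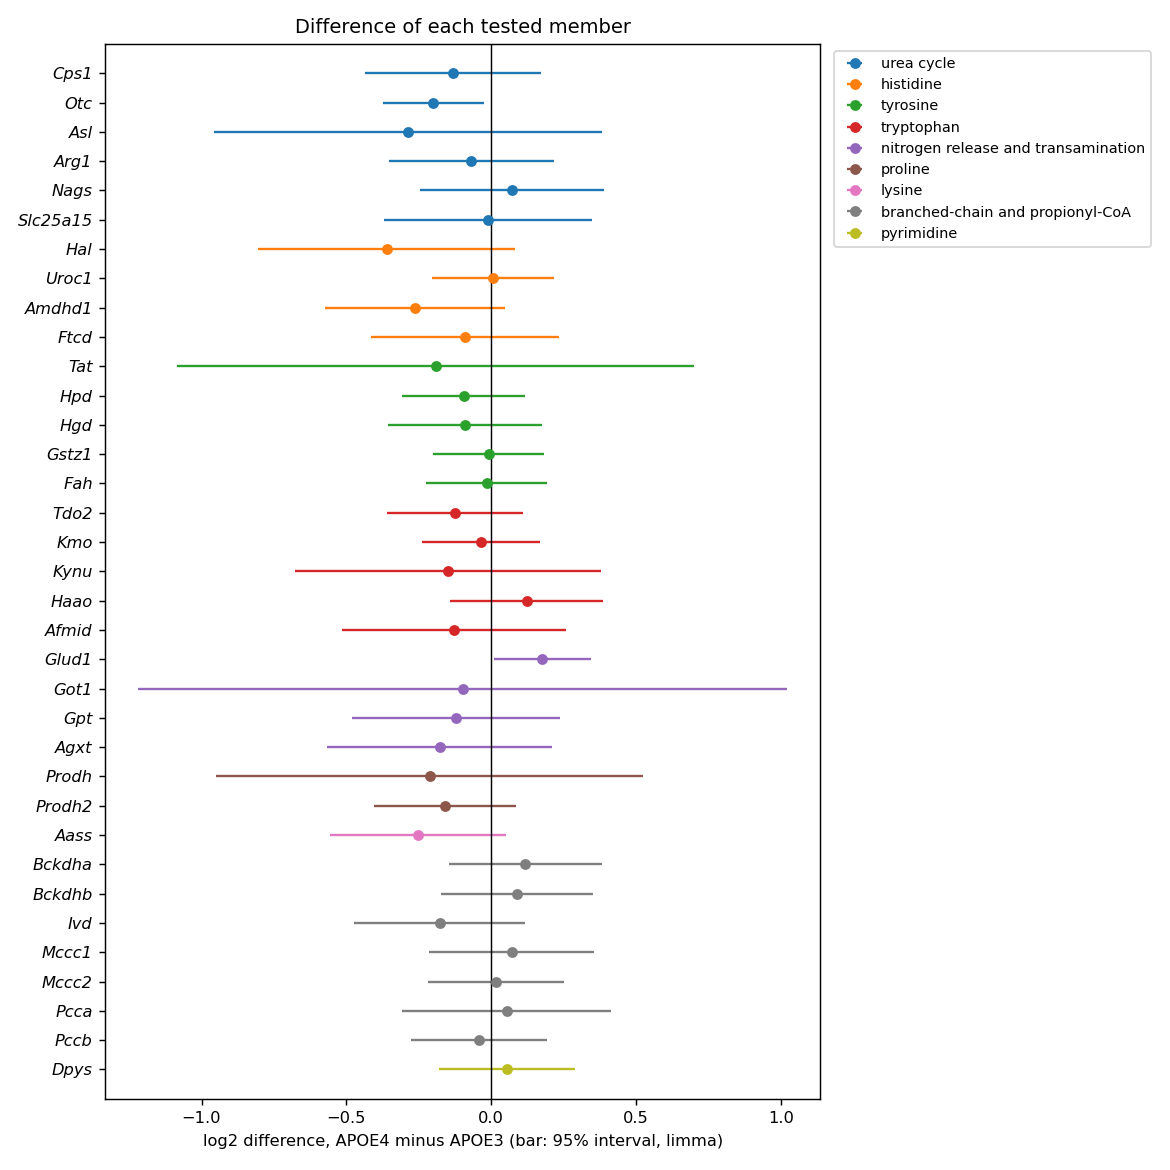
Log2 difference, APOE4 minus APOE3, of each of the 35 measured members (point) with its 95% interval from limma (bar), coloured by role. The points lie between -0.36 and 0.18, and only the bars of Otc and Glud1 do not reach 0.

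The mouse Apoe probe set read at background on all arrays, 1.00 to 1.19 in APOE4 and 0.96 to 1.12 in APOE3, so it checks no genotype label. All 6 tested hepatocyte markers were high, with a mean between 14.02 and 14.15 over APOE4 livers and between 13.89 and 14.16 over APOE3 livers. The 10 Kupffer cell and macrophage markers averaged 7.97 to 8.93 in APOE4 livers and 8.20 to 9.92 in APOE3 livers, where replicate 4 was the highest. The 7 tested markers of hepatocytes near the portal vein averaged 10.75 to 11.03 in APOE4 and 10.76 to 11.33 in APOE3, and the 8 of those near the central vein 10.55 to 10.78 in APOE4 and 10.48 to 11.09 in APOE3; their values by liver are given with the order of the livers. Of the 4 cholangiocyte and the 4 kidney proximal tubule markers on the array, 0 were above background. In RNA from whole liver, fewer cells of a type and less RNA per cell cannot be told apart.

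Of the 7 urea cycle genes, 6 could be followed. Ass1, the argininosuccinate synthetase gene, was represented only by a probe set near background (3.39 ± 0.35 in APOE4 and 3.70 ± 0.31 in APOE3; SD, n = 5 each); 1 more probe set names it together with a second gene and was not used. Cps1, the mitochondrial carbamoyl phosphate synthetase that starts the cycle, was at 12.72, 12.76, 13.12, 12.80 and 13.05 in APOE4 livers 1 to 5, against 12.67, 12.86, 13.28, 13.11 and 13.19 in APOE3 livers 1 to 5. The groups overlapped, with the low and the high values found in both genotypes (difference -0.13, SE 0.14, adjusted p = 0.827 in limma). Arg1, the arginase that releases urea, read 12.74, 12.83, 13.16, 12.78 and 13.08 in APOE4, against 12.78, 12.79, 13.11, 12.97 and 13.28 in APOE3. The 5 lowest livers were the same as for Cps1, and the difference was -0.07 (SE 0.13).

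Asl, the argininosuccinate lyase gene, varied most within the cycle. It was at 11.03, 11.13, 12.10, 11.15 and 12.02 in APOE4 livers 1 to 5, against 11.01, 11.32, 12.21, 12.02 and 12.31 in APOE3 livers. The values lay at 2 levels in both genotypes: no liver stood between 11.32 and 12.02. The APOE4 minus APOE3 difference of -0.29 (SE 0.30) was smaller than that step. Nags, which makes the allosteric activator of Cps1, was at 8.35 ± 0.30 in APOE4 and 8.28 ± 0.14 in APOE3 (SD, n = 5 each). Slc25a15, the ornithine carrier of the mitochondrial membrane, was at 11.70, 11.56, 12.12, 11.76 and 11.99 in APOE4, against 11.47, 11.55, 12.19, 11.99 and 12.00 in APOE3. Its second, dimmer probe set differed by 0.27 (SE 0.37) where the first differed by -0.01 (SE 0.16), and both placed the same 5 livers lowest.

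Otc and Glud1 differed from the rest in that their animals hardly varied and the genotypes did not overlap. Otc, the ornithine transcarbamylase that makes citrulline, was at 12.64, 12.66, 12.71, 12.54 and 12.55 in APOE4 livers, against 12.89, 12.83, 12.83, 12.73 and 12.83 in APOE3 livers. Every APOE4 value was under every APOE3 value, and the difference was -0.20 (SE 0.079, unadjusted p = 0.028, adjusted p = 0.584 in limma). The other tested Otc probe sets differed by 0.02 (SE 0.096) and 0.10 (SE 0.18), and their groups overlapped, so the lower APOE4 value rests on 1 probe set of 3.

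Glud1, the glutamate dehydrogenase that frees ammonia from glutamate, was at 12.85, 12.87, 12.75, 12.88 and 12.83 in APOE4 livers, against 12.62, 12.65, 12.59, 12.71 and 12.74 in APOE3 livers. Here every APOE4 value was above every APOE3 value, and the difference was 0.18 (SE 0.076, unadjusted p = 0.0405, adjusted p = 0.6 in limma). Its second probe set read 12.32, 12.45, 12.39, 12.49 and 12.45 in APOE4, against 12.16, 12.14, 12.19, 12.37 and 12.29 in APOE3. That probe set gave nearly the same difference, 0.19 (SE 0.083, adjusted p = 0.603 in limma), with the lowest APOE4 liver under the highest APOE3 liver. Otc and Glud1 were thus 2 of 35 members whose groups did not overlap, against 2.02% of all tested probe sets. The SD within a genotype was 0.057 for Glud1 and 0.068 for Otc, at percentiles 0.4 and 1.1 of the SDs of tested genes. These percentiles are over genes of all levels, and some other genes as bright were as even.

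**Figure D2:**
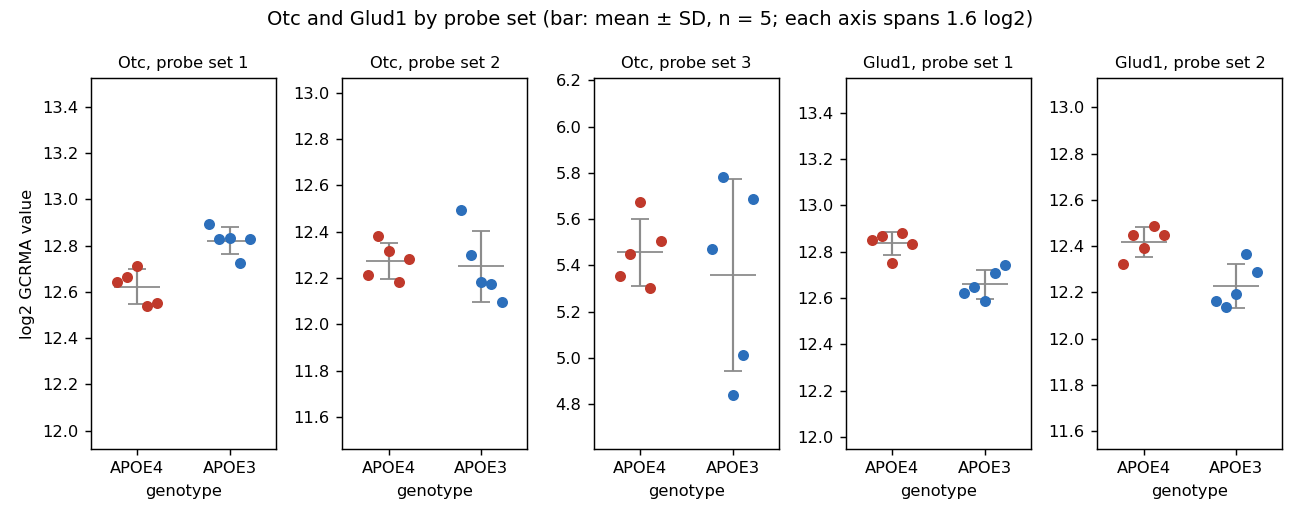
Log2 values of each liver (points) with mean ± SD (bars, n = 5) for the 3 Otc and 2 Glud1 probe sets, APOE4 left and APOE3 right, each axis spanning 1.6 log2. The first Otc probe set separates the genotypes and the others overlap, while both Glud1 probe sets have the higher mean in APOE4.

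Histidine is broken down to glutamate by 4 enzymes that act in turn. Hal, the histidine ammonia-lyase that takes the first step, was at 10.40, 10.66, 11.33, 10.64 and 11.07 in APOE4 livers, against 10.60, 11.41, 11.27, 11.24 and 11.38 in APOE3 livers. All APOE3 livers but replicate 1 were near 11.3, while APOE4 livers were spread, and the difference was -0.36 (SE 0.20, adjusted p = 0.678 in limma). Without APOE3 replicate 1 it was -0.51, with an adjusted p of 0.361 in limma. Amdhd1, the imidazolonepropionase of the third step and the neighbour of Hal on chromosome 10, was at 10.75, 10.91, 11.30, 11.06 and 11.12 in APOE4, against 11.02, 11.63, 11.10, 11.26 and 11.44 in APOE3. Both its probe sets had the lower mean in APOE4, by -0.26 (SE 0.14) and -0.36 (SE 0.20), and in both the groups overlapped. Uroc1, the urocanase between them in the pathway, was at 11.40, 11.49, 11.58, 11.41 and 11.64 in APOE4, against 11.46, 11.63, 11.65, 11.40 and 11.35 in APOE3. It had nearly the same mean in both genotypes (difference 0.01, SE 0.096); its dimmer probe set was at -0.07 (SE 0.10). Ftcd, the formiminotransferase that passes the last carbon to folate, differed by -0.09 (SE 0.15).

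Tyrosine breakdown starts with Tat, the tyrosine aminotransferase gene long used as a marker of glucocorticoid action in liver. It was at 10.58, 9.70, 11.39, 10.04 and 10.92 in APOE4 livers 1 to 5, against 9.89, 9.83, 11.58, 11.07 and 11.22 in APOE3 livers. The livers spanned a 3.70-fold range that both genotypes shared, and the difference was -0.19 (SE 0.41). The enzymes after it were high and even. Hpd, Hgd, Gstz1 and Fah, which carry the ring to fumarate and acetoacetate, had SDs within a genotype of 0.13, 0.18, 0.096 and 0.12, and their differences lay between -0.10 for Hpd and -0.01 for Gstz1. Hgd also had a dim probe set at 4.42 ± 0.37 in APOE4 and 4.69 ± 0.89 in APOE3 (SD, n = 5 each).

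Tryptophan enters the kynurenine pathway through Tdo2, the liver's tryptophan dioxygenase. Its brightest probe set was at 13.11, 13.49, 13.41, 13.25 and 13.28 in APOE4, against 13.38, 13.22, 13.47, 13.47 and 13.63 in APOE3. All its 3 probe sets had the lower mean in APOE4, at -0.13 (SE 0.11), -0.32 (SE 0.16) and -0.44 (SE 0.23), and none passed (adjusted p = 0.777, 0.644 and 0.668 in limma). APOE4 replicate 1 was the lowest liver in each of them. Afmid, the formamidase of the second step, was at 9.44, 9.51, 9.69, 9.13 and 9.87 in APOE4, against 9.27, 9.46, 9.65, 9.82 and 10.10 in APOE3. It was at -0.13 (SE 0.18) by this probe set and at 0.08 (SE 0.15) and 0.14 (SE 0.17) by the dimmer ones, so its sign depends on the probe set.

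Further along, Kynu, the kynureninase gene, was at 10.37, 9.92, 10.73, 10.20 and 10.63 in APOE4, against 10.18, 9.82, 11.08, 10.79 and 10.73 in APOE3. As for Tat, the low livers came from both genotypes, and the difference was -0.15 (SE 0.24). Kmo, the kynurenine monooxygenase gene, was even at 11.33 ± 0.11 in APOE4 and 11.36 ± 0.11 in APOE3 (SD, n = 5 each). Haao, the dioxygenase on the way to NAD, was at 11.17, 11.15, 11.32, 10.86 and 11.42 in APOE4, against 11.12, 10.85, 11.00, 11.12 and 11.22 in APOE3. Its mean was the higher one in APOE4 (0.12, SE 0.12) within overlapping groups.

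Among the transaminases, Got1, the cytosolic aspartate aminotransferase that supplies aspartate to the urea cycle, varied most of all members. It was at 10.59, 9.47, 11.23, 9.95 and 11.23 in APOE4 livers 1 to 5, against 9.49, 9.35, 11.30, 11.23 and 11.58 in APOE3 livers. The livers spanned a 4.69-fold range while the genotype means differed by -0.10 (SE 0.51). The interval of that difference, -1.22 to 1.02, allows a difference of about 1 log2 in either direction. Gpt, the cytosolic alanine aminotransferase, was at 10.89 ± 0.26 in APOE4 and 11.01 ± 0.29 in APOE3 (SD, n = 5 each), by a probe set of a type that can match several transcripts, as is that of Uroc1. Agxt, the alanine-glyoxylate aminotransferase gene, was at 10.92, 10.70, 11.13, 11.13 and 11.19 in APOE4, against 10.63, 11.60, 11.02, 11.38 and 11.34 in APOE3. APOE3 held both its lowest and its highest liver (-0.18, SE 0.18). Sds, Sdsl and Gls2 had no probe set that names them alone and were not analysed here.

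Prodh, the proline dehydrogenase gene, was at 9.64, 9.53, 10.41, 9.32 and 10.74 in APOE4, against 9.64, 9.49, 10.09, 10.48 and 10.98 in APOE3. Its low livers again came from both genotypes, though the APOE3 values rose gradually (difference -0.21, SE 0.34). Prodh2, which oxidises hydroxyproline, was at 10.18, 10.24, 10.22, 9.99 and 10.24 in APOE4, against 10.23, 10.28, 10.08, 10.53 and 10.55 in APOE3. It was far more even than Prodh, at -0.16 (SE 0.11). Aass, the first enzyme of lysine breakdown, was at 11.00, 11.23, 11.62, 11.13 and 11.46 in APOE4, against 11.30, 11.39, 11.68, 11.58 and 11.74 in APOE3. Its difference of -0.25 (SE 0.14) did not pass (adjusted p = 0.677 in limma).

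The branched-chain amino acids leucine, isoleucine and valine share the keto acid dehydrogenase of Bckdha and Bckdhb, after which Ivd and the carboxylase subunits Mccc1 and Mccc2 act on leucine, and Pcca and Pccb on propionyl-CoA. In this role 5 of 7 members had the higher mean in APOE4, with differences from -0.18 for Ivd to 0.12 for Bckdha, and none passed (adjusted p = 0.754 to 0.979 in limma). Ivd was at 9.34, 9.22, 9.16, 8.98 and 9.47 in APOE4, against 9.20, 9.42, 9.16, 9.55 and 9.73 in APOE3; its second probe set gave -0.23 (SE 0.14). The probe sets of Mccc1 differed in sign. The brighter one was at 8.51, 8.52, 8.42, 8.33 and 8.52 in APOE4, against 8.80, 8.37, 8.21, 8.08 and 8.48 in APOE3 (0.07, SE 0.13), and the dimmer one differed by -0.17 (SE 0.097). APOE3 replicate 1 was the highest liver for the brighter probe set of Mccc1, for Mccc2 (9.39) and for Pcca (9.51). In the dimmer Mccc1 probe set it read 6.66, under APOE3 replicate 4 at 6.76. Dpys, the dihydropyrimidinase of pyrimidine breakdown, was at 11.53 ± 0.13 in APOE4 and 11.48 ± 0.17 in APOE3 (SD, n = 5 each).

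In 30 of the 35 members the genotype difference was no larger than the SD between animals of a genotype, the others being Otc, Glud1, Hal, Amdhd1 and Aass. Many members placed the same livers lowest. The order of the livers means here which livers were lowest, and not their ranks among each other. This pattern was noticed in the values and then counted, so it is a description with no test. The 5 lowest livers for Got1 were APOE4 replicates 1, 2 and 4 and APOE3 replicates 1 and 2. The same 5 livers were the lowest for 13 of the 35 measured members, Got1 included, which is 37.1% of them, against 1.84% of all tested genes. By role they were 5 of 6 urea cycle genes (Cps1, Asl, Arg1, Nags and Slc25a15), Tat, Hpd and Hgd of tyrosine breakdown, Kynu and Afmid of tryptophan breakdown, and Got1, Prodh and Aass. At least 4 of these 5 livers were among the lowest for 21 members, against 14.2% of tested genes. None of the 7 branched-chain and propionyl-CoA members and none of the 4 histidine members shared all 5; for Hal, Amdhd1 and Ftcd 4 were shared. As these 5 livers come from both genotypes, each of the 13 genes had to have low and high livers in both. The overlap of the APOE4 and APOE3 groups in these genes also follows from how they were counted, and is no separate result.

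**Figure D3:**
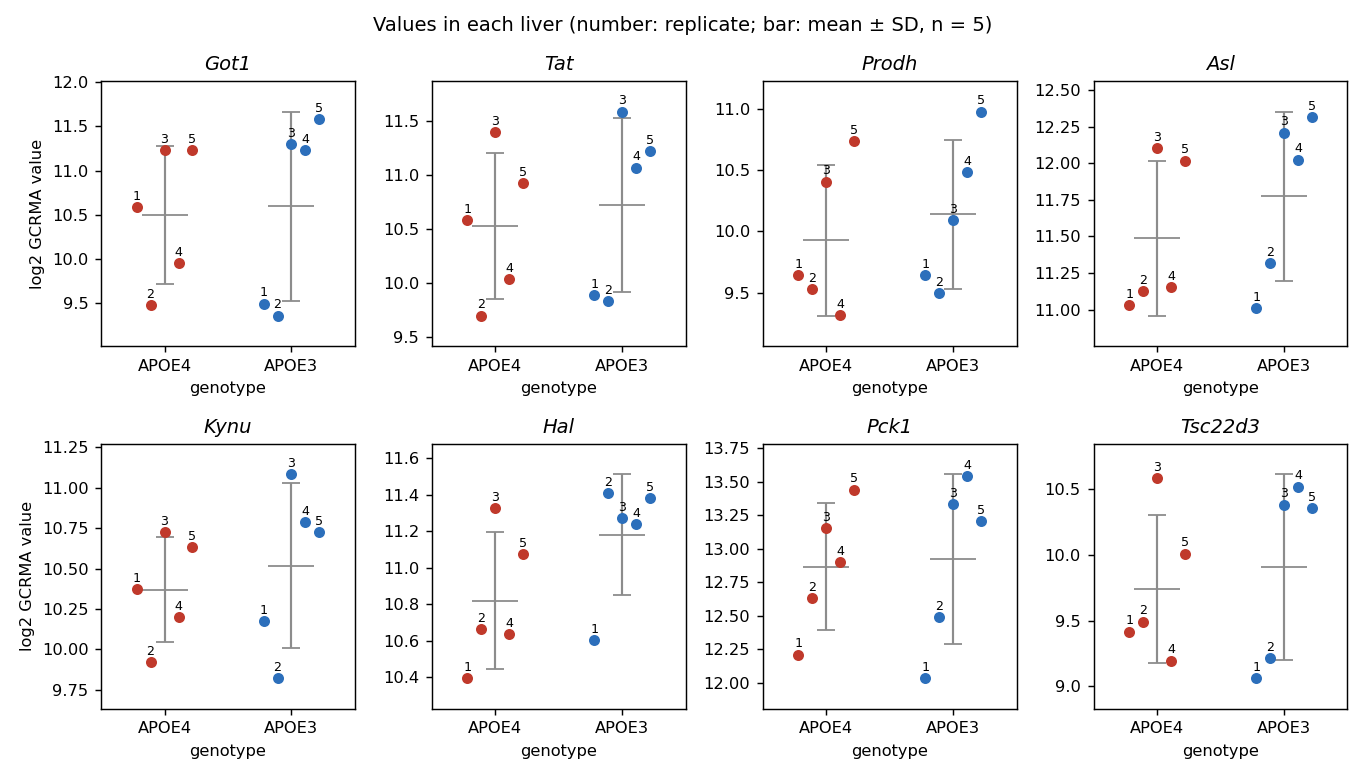
Log2 values of each liver (points, numbered by replicate) with mean ± SD (bars, n = 5) for the 6 members with the largest SD within a genotype and for Pck1 and Tsc22d3, APOE4 left and APOE3 right. In all panels but Hal, replicates 1, 2 and 4 of APOE4 and 1 and 2 of APOE3 are the 5 lowest livers; for Got1 they read up to 10.59 and the others at least 11.23.

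The step between the fifth and the sixth lowest liver was 0.70 log2 for Asl, 0.64 for Got1, 0.45 for Prodh, 0.34 for Tat and 0.26 for Kynu, and as little as 0.02 for Nags. RNA integrity can be read from control probe sets at both ends of a transcript. For Actb the 3' end exceeded the 5' end by 2.51, 2.58, 2.46, 2.97 and 2.70 in APOE4 livers 1 to 5, against 2.55, 3.20, 2.56, 2.85 and 2.22 in APOE3 livers. For Gapdh it did so by 0.30, 0.33, 0.32, 0.62 and 0.41 in APOE4 livers 1 to 5, against 0.20, 0.73, 0.41, 0.55 and 0.31 in APOE3 livers. For both controls the highest values were in APOE3 replicate 2 and APOE4 replicate 4, which are among the 5 low livers, and the third highest was in APOE3 replicate 4, which is not; the part of RNA integrity in the order was not tested.

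Means of cell type and zone markers were set beside this order. The mean of the 8 tested markers of hepatocytes near the central vein was 10.63, 10.55, 10.76, 10.56 and 10.78 in APOE4 livers 1 to 5, against 10.51, 10.48, 11.00, 11.09 and 10.94 in APOE3 livers. Its 5 lowest livers were those of Got1, though none of the 8 genes had all 5 of them lowest by itself and 5 shared at least 4. The mean of the 7 markers of hepatocytes near the portal vein, among them Hal and Pck1, was 10.75, 10.79, 11.03, 10.84 and 10.84 in APOE4, against 10.76, 11.33, 11.06, 11.05 and 10.94 in APOE3, with its highest liver, APOE3 replicate 2, among the 5 low livers of Got1. By single genes, 1 of these 7, Pck1, had all 5 lowest, and 3 shared at least 4. Of all tested genes, 1.84% had all 5 and 14.2% shared at least 4.

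The 4 tested stellate cell and fibroblast markers had a mean of 9.66, 9.34, 8.90, 9.50 and 8.66 in APOE4, against 9.23, 9.44, 8.41, 9.27 and 8.88 in APOE3. Among them Col3a1, a fibrillar collagen gene, was at 10.46, 9.12, 7.13, 9.04 and 5.93 in APOE4, against 9.06, 9.52, 6.36, 8.96 and 7.74 in APOE3. The 5 low livers of Got1 were the 5 highest for Col3a1, which was picked after its values were seen. For the mean of the 4 markers they were not, as APOE3 replicate 4 (9.27) stood above APOE3 replicate 1 (9.23). Col3a1 ran from 5.93 to 10.46, so this mean leans on that gene. The other markers of the list are not shown by liver, and the list is not described as following the order. The Kupffer cell markers had a mean of 8.93, 8.10, 8.09, 8.76 and 7.97 in APOE4, against 8.30, 8.87, 8.36, 9.92 and 8.20 in APOE3, highest in APOE3 replicate 4, which is not among the low livers. The part of these cells and zones in the order of the members was not tested.

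Of the genes known to regulate this pathway or to respond to fasting, 2 of the 23 tested had the same 5 lowest livers. This is 8.70% of them, against 1.84% of all tested genes, and the rest of the 23 did not share all 5. At least 4 of the 5 livers were shared by 11 of the 23, against 14.2% of all tested genes. The 2 were Pck1, the gluconeogenic enzyme induced by glucagon and glucocorticoids, and Tsc22d3, a glucocorticoid-induced gene. The part of these hormones in the order of the members was not tested. Pck1 was at 12.21, 12.63, 13.16, 12.90 and 13.44 in APOE4, against 12.03, 12.49, 13.33, 13.54 and 13.21 in APOE3. Tsc22d3 was at 9.42, 9.49, 10.59, 9.19 and 10.01 in APOE4, against 9.06, 9.21, 10.38, 10.52 and 10.36 in APOE3.

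**Figure D4:**
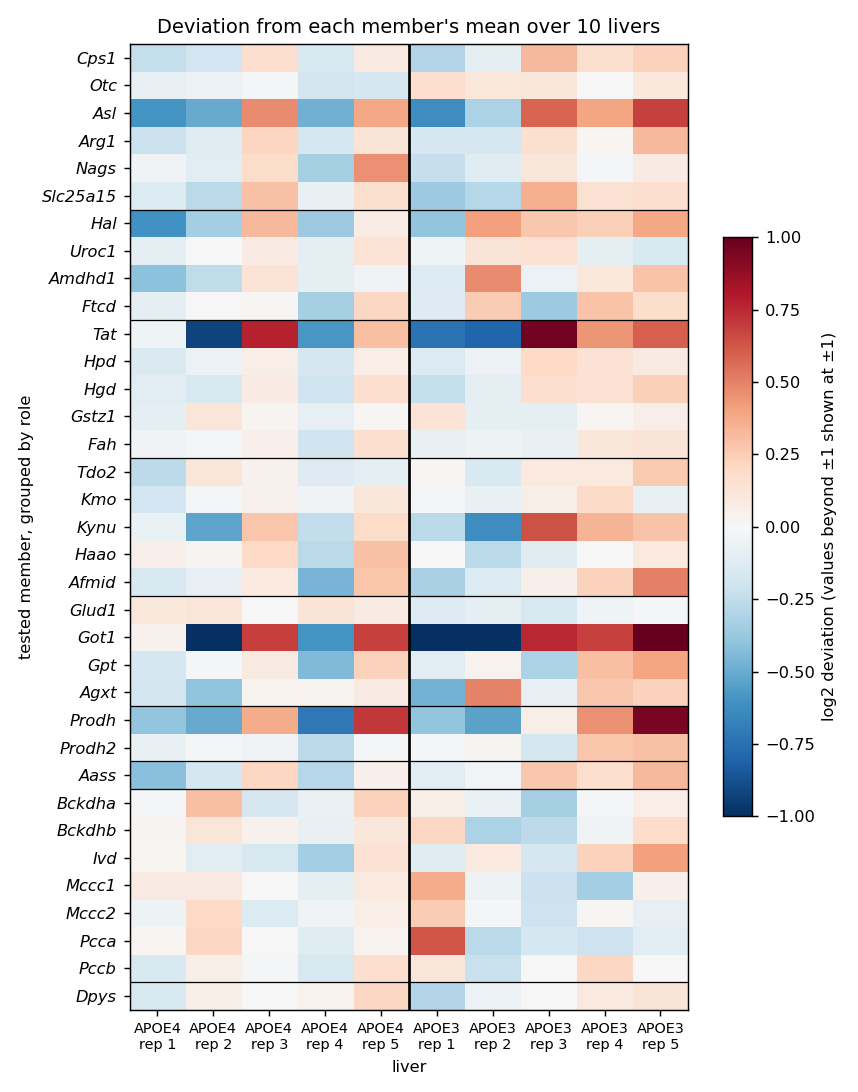
Deviation of each liver (column, APOE4 left of the line and APOE3 right) from the member's mean over the 10 livers, in log2, for the 35 measured members in rows grouped by role. Red marks higher and blue lower values; Asl, Tat, Kynu, Got1 and Prodh show the widest swings, and the branched-chain rows do not follow them.

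The spread itself set members apart from each other. The SD within a genotype was 0.94 for Got1, 0.74 for Tat, 0.61 for Prodh and 0.55 for Asl, so 4 of 35 members exceeded 0.5, where 7.52% of tested genes did. Kynu (0.43) and Hal (0.35) followed. The median over the members was 0.20, against 0.22 over all tested genes, and 14 of the 35 members lay above the median of tested genes. In the urea cycle Asl, at an SD of 0.55, stood beside Otc at 0.068, though both act in the same pathway.

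**Figure D5:**
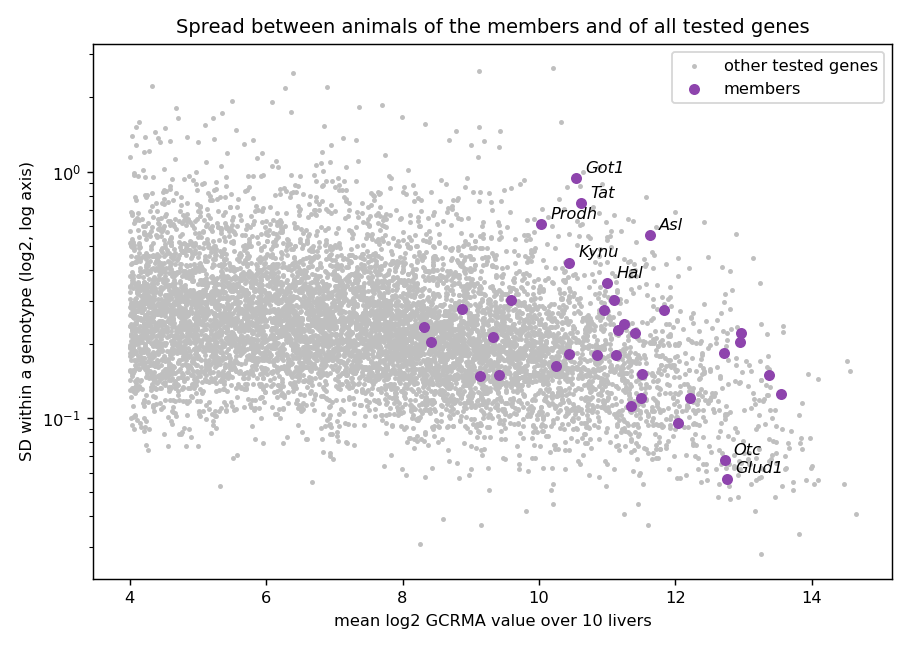
SD within a genotype (log2, on a log axis) against the mean log2 value over 10 livers, for the 35 members (purple) and the other tested genes (grey). Got1, Tat, Prodh and Asl lie above 0.5, while Otc and Glud1, at 0.068 and 0.057, lie near the lower edge.

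Promoter sequences of members that shared the 5 lowest livers of Got1 are shown to give the context in which shared motifs could be looked for. RefSeq windows of GRCm38.p6, from 250 bases before to 50 after an annotated start, were held for 30 of the 39 members, in 34 windows. The 150 bases before the start are printed for the 3 most variable members that had a window, Got1 (chr19:43524606-43524755, minus strand), Tat (chr8:109990286-109990435, plus strand) and Prodh (chr16:18089191-18089340, minus strand), and for the members of the same order whose printed stretch held a match, Hgd (chr16:37580003-37580152, plus strand) and Aass (chr6:23132987-23133136, minus strand). Capitals mark matches on either strand to the C/EBP motif TTGCNNAA (in Hgd and Aass) and the cyclic AMP response core TGACG (in Aass). They also mark the letters of the TATA box, TATAAA, in Hgd, read on the opposite strand at -139 to -134 from the start.
Got1: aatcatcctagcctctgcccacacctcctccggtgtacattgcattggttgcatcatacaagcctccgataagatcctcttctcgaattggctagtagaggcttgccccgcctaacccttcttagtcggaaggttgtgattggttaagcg
Tat: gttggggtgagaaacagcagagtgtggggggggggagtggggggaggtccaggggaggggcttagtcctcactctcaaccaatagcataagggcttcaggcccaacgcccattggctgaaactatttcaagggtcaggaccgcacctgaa
Prodh: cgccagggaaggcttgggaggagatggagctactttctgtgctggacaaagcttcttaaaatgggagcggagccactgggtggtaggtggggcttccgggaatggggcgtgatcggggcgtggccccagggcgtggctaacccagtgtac
Hgd: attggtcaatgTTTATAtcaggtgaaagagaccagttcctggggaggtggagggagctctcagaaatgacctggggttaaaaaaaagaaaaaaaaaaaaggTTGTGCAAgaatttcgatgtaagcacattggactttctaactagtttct
Aass: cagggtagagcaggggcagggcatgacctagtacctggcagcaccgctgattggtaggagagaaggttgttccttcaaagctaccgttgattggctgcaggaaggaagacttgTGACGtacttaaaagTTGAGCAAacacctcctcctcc
The C/EBP motif matched 4 of the 34 member windows (11.8%), against 10.8% of all 32851 windows in the table. The cyclic AMP response core matched 5 (14.7%), against 20.8%, and the TATA box 4 (11.8%), against 13.6%. The full palindromic glucocorticoid response element, the HNF1 palindrome and the HNF4 direct repeat matched 0 member windows and 3, 3 and 13 of all windows. TGTTCT alone, which is 1 arm of the glucocorticoid motif and was added after the values were seen, matched 5 member windows (14.7%), against 19% of all, and 0 of the 10 windows of members with the shared liver order. In the windows of Got1, Tat and Prodh none of these letters were found.

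Beyond the members, 69 further symbols of amino acid transport and breakdown were looked up, some of them older names of the same gene, and 50 were tested. Of these, 25 had the higher and 25 the lower mean in APOE4, the median difference was -0.01, and none passed. The smallest p-values belonged to Slc38a4, an amino acid transporter (-0.36, SE 0.13), Oat, the ornithine aminotransferase of hepatocytes near the central vein (-0.37, SE 0.14), and Slc7a2, a transporter of cationic amino acids such as arginine (-0.60, SE 0.24), with adjusted p = 0.58, 0.583 and 0.584 in limma. Only Slc25a12, a mitochondrial aspartate/glutamate carrier, and Gnmt, which methylates glycine, had the same 5 lowest livers as Got1 (4.00% of the 50); both were named after their values were seen. The shared order was found in other amino acid genes outside these lists, also named after their values were seen: Mat1a, Ahcy, Bhmt, Cbs, Cth, Cdo1 and Suox, which handle methionine and sulfur amino acids, and Slc16a10, a carrier of aromatic amino acids. The number of tested genes of these pathways is not given here, so these names give no share. Among the regulators and fasting genes, 11 of 23 had the higher mean in APOE4 and none passed; Pdk4 was at 1.39 (SE 0.63), Dusp1 at 0.77 (SE 0.45) and Cpt1a at -0.24 (SE 0.15), with adjusted p = 0.623, 0.688 and 0.703 in limma.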

How the data were processed

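The authors deposited 1 log2 value per probe set and array, without pooling animals. The submitters' processing notes name GCRMA (version 2.12.1) and R (version 2.7.1). GCRMA corrects background by probe GC content and normalizes between arrays, so low values are compressed towards a floor. Any probe filter is not given in the sources used here, and the table has 0 columns of no sample. Replicates are separate animals per the labels, and no batch is given. Genotypes were taken from the sample titles.

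Probe sets with 1 gene symbol in the platform annotation were used, the brightest of each gene for counts and medians. The test for probe sets with a mean of at least 4 was the two-sided moderated test of limma (version 3.58.1, under R 4.3.3), with genotype as the only term. P-values were adjusted by Benjamini-Hochberg over 14732 probe sets, with a threshold of 0.05. The procedure was first tested on simulated data. There it recovered 44% of the probe sets changed by 0.5 log2 and 78% of those changed by 1, with 13 false calls among 173. The simulation also held 50 probe sets changed by 2 and 50 changed by 4, recovered at 98% and 100%. These add to the calls, and more calls make the adjusted threshold easier to pass. In the data 12 probe sets were called, so the share recovered at 0.5 and 1 may be lower there. No member's difference was as large as 0.5. Precision is set by having 5 arrays a genotype (median SE 0.14 log2).

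The members and lists were chosen with earlier results of these data known. All members are named. Values of every liver are given for members with an unadjusted p under 0.05, the 10 with the smallest p, the 6 with the largest SD and those whose probe sets differ in sign, and for Cps1, Arg1, Pck1, Tsc22d3 and Col3a1, chosen after their values were seen. Of each further list, the 3 genes with the smallest p are named. The cell type lists not described in the text had 0 genes past the threshold. Alternatives were no filter, a filter at 6, trend and robust eBayes, array weights, quantile normalization, centring, values under 4 set to 4, all probe sets, the replicate number as a block, and each animal left out. The counts of lower means and of shared lowest livers were added after seeing the data. Plots and promoter matches were made in Python 3.11.15, the plots with matplotlib 3.10.9.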

Additional observations from a re-analysis of the deposited data

Results flagged for a closer look

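Of the 70 sets of 5 livers examined (35 members in 2 genotypes), 3 held a liver far from the other 4, near the 1 in 20 that such a rule finds by chance. Hal was at 10.60 in APOE3 replicate 1, against 11.24 to 11.41 in the other APOE3 livers. Prodh2 was at 9.99 in APOE4 replicate 4, against 10.18 to 10.24 in the other APOE4 livers. Pcca was at 9.51 in APOE3 replicate 1, against 8.61 to 8.76 in the other APOE3 livers.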

How the results depend on the processing

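No member passed the adjusted threshold under any alternative run; 2 members had an unadjusted p under 0.05, and the smallest adjusted p for any member was 0.361 in limma (Hal, without APOE3 replicate 1). Over all probe sets, 12 were called, 5 with the filter at a mean of 6, and 133 by an unadjusted p under 0.05 with a fold of at least 1.5. The members with the lower mean in APOE4 numbered 21 to 27 over all alternatives, 22 with arrays centred and 27 after renewed quantile normalization. The members with the 5 lowest livers of Got1 numbered 12 (centred) to 14 (no filter) when values or filter were altered, 13 to 15 with single animals left out, and 14 of 52 over all probe sets. The share of 1.84% of all tested genes belongs to the main setting, and the shares under these alternatives are not given here. Replicate numbers are shared between genotypes without marking a common litter or day in the labels; deviations of same-numbered livers correlated between -0.079 and 0.41, and with the replicate block 11 probe sets and 0 members were called.

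Of 630 single-member values, 588 kept their sign and 42, from 14 members, did not. The sign turned for Gstz1 with array weights (0.015) and centring (0.022), for Slc25a15 (0.020) and Fah (0.016) with centring, and for Uroc1 (-0.025) and Mccc2 (-0.027) after quantile normalization. Without single animals Gstz1 ranged from -0.040 to 0.024, Uroc1 from -0.031 to 0.046, Mccc2 from -0.033 to 0.081, Slc25a15 from -0.10 to 0.077, Fah from -0.058 to 0.034, Kmo from -0.068 to 0.0088, Tat from -0.41 to 0.025, Got1 from -0.41 to 0.16, Nags from -0.034 to 0.16, Dpys from -0.013 to 0.10, Pcca from -0.0058 to 0.22, Mccc1 from -0.0051 to 0.17, Pccb from -0.10 to 0.0038 and Arg1 from -0.13 to 0.0034.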

Other observations

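Beside Got1, 156 tested genes had the same 5 lowest livers. Ordered by the step between the fifth and the sixth lowest liver, Cyp39a1, an oxysterol hydroxylase of bile acid synthesis, came first with a step of 0.77 log2 and an 8.80-fold range over the livers. Asl came second (0.70), and Cyp17a1, a steroid hydroxylase, after it (0.65, with a 23.2-fold range). Among the first 30 were 6 members: Asl, Prodh, Tat, Kynu, Slc25a15 and Cps1. The list also held Cth, the cystathionine lyase that makes cysteine, with a 2.12-fold range, and Slc16a10 with a 3.79-fold range. These genes were picked after their values were seen.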
